A study of Mus musculus with 12 samples.

Results

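The 8 genes encoding pore-forming alpha-1 subunits of voltage-gated calcium channels were followed across mouse neocortex and neocortical cultures: Cacna1a, Cacna1b, Cacna1c, Cacna1d, Cacna1e, Cacna1g, Cacna1h and Cacna1i. They were taken by symbol from 2 deposited tables of splice junctions, which held 18609 genes with annotated spliced reads in all, and all 8 members were read in every library. An alpha-1 subunit forms the calcium pore and carries the voltage sensors, while beta and alpha-2-delta subunits govern how much channel reaches the membrane and how it gates. In cortical neurons the P/Q-, N- and R-type channels admit the calcium that triggers transmitter release, the L-type channels couple activity to gene expression, and the T-type channels open at low voltage and shape burst firing. Alternative exons change the gating and the binding partners of many of these channels.

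All libraries were polyadenylated RNA from wild-type NMRI mice, in 6 groups of 2 libraries. The tissue groups were neocortex at postnatal day 49 (P49) and at postnatal day 10 (P10), neither given a drug. The culture groups came from E16.5 neocortex that had been dissociated and grown for 14 days. In a first experiment they received DRB at 50 uM for 2 hours, or nothing (control). In a second experiment they received the same DRB treatment together with bicuculline at 20 uM for 1 hour, or the DRB treatment alone. DRB blocks the entry of RNA polymerase II into productive elongation, and bicuculline raises network activity by blocking GABA-A receptors. Some column names also mention TTX, a sodium channel blocker; the labels do not say whether it was added in the first experiment. The columns taken as DRB alone in the second experiment are named as controls there, and, like those of P49 and control, were assigned by elimination. The pair of P10 columns shares one tissue code, and no label states separate animals or cultures within a group. The p-values therefore measure the spread between these libraries, which may be technical.

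Depth ran from 49559425 to 73900724 spliced reads per library in the table of P49, P10, first DRB and control, and from 62423801 to 69852903 in the other. Summed CPM (spliced reads scaled to library size by TMM) of 6 neuronal markers, none of them at 0, ran from 6920 to 6930 at P49, 4500 to 4530 at P10, 3170 to 3250 with DRB and 1670 to 1760 in control cultures. Of 4 radial glia and progenitor markers 3 were measured, and their sum was 49.9 to 55.5 CPM at P49, 97.5 to 102 at P10, 1720 to 1760 with DRB and 3350 to 3690 in control. That sum was mostly Vim, at 3630 and 3300 CPM in control, against 58.6 and 49.7 for Nes. Hes5 went the other way between tissue and culture, at 10 and 9.24 CPM at P10 and 1.38 and 1.66 in control. In bulk RNA, fewer cells of a type and less RNA per cell cannot be told apart.

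Levels were compared between genes as CPM per junction, the summed CPM divided by the number of introns of the transcript with most introns. By group means, Cacna1a and Cacna1b led in every group, and Cacna1d or Cacna1h came last. Wherever Cacna1h came last, its range overlapped that of Cacna1i. At P49, Cacna1a, the P/Q-type pore that serves fast release at most central synapses, stood at 11.7 and 11.3 CPM per junction, and Cacna1b, the N-type pore, at 6.01 and 7.44. Cacna1g followed at 5.47 and 5.69, Cacna1e at 4.91 and 5.03, Cacna1i at 5.20 and 4.66, Cacna1h at 3.43 and 3.22, Cacna1c at 2.55 and 2.68, and Cacna1d at 2.47 and 2.45. The ranges of Cacna1e and Cacna1i overlapped there, and no other neighbours in the P49 order did.

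At P10 the order was Cacna1a (12.8 and 12.3 CPM per junction), Cacna1b (9.65 and 12.1), Cacna1g (9.27 and 9.74), Cacna1i (5.75 and 5.8), Cacna1h (4.07 and 4.16), Cacna1e (3.43 and 3.21), Cacna1c (2.65 and 2.80) and Cacna1d (2.52 and 2.48). Cacna1b and Cacna1g were the only neighbours that overlapped at P10. The T-type gene Cacna1g thus ranked 3 in both tissues, while Cacna1e ranked 4 at P49 and 6 at P10. In control cultures Cacna1b averaged 6.05 and Cacna1a 5.60 CPM per junction, against 1.68 to 2.38 for the other 6 genes. The plot of CPM by group shows every library.

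**Figure D1:**
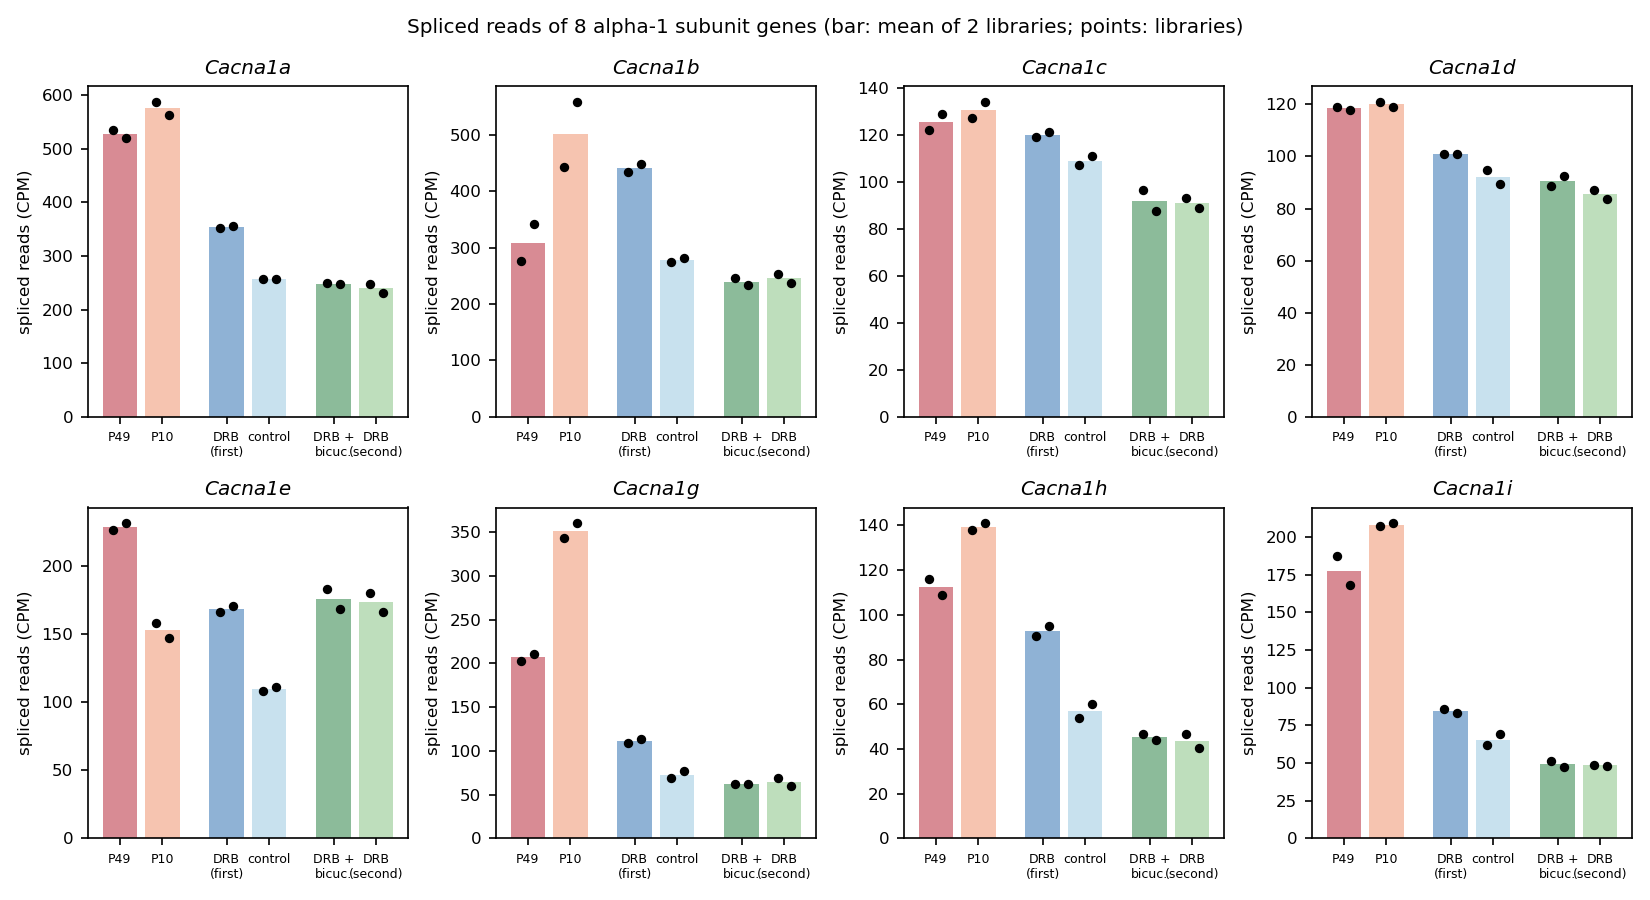
Spliced reads of each alpha-1 gene, in CPM summed over its annotated junctions, by group. Bars are means of 2 libraries and points are libraries. Cacna1g stands at 203 and 211 CPM at P49 and 343 and 360 at P10, against 68.5 and 76.8 in control cultures.

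The comparison of P49 with P10 asks how the channel genes change between the developing and the adult neocortex. Of the 8 genes, 1 rose and 5 fell. Of all 15256 genes tested, 28.3% rose and 29.0% fell, 57.3% in all, so calls are common in this comparison. The median log2 change was -0.18 over the 8 members and 0.00 over all genes tested. Neuronal markers as a sum were higher at P49 (above). Snap25 rose most of them in CPM, to 3020 and 2940 from 1020 and 986 at P10. Only Tubb3 among them was lower, at 184 and 203 CPM at P49 against 514 and 566 at P10. The 5 oligodendrocyte markers summed to 2350 to 2400 CPM at P49 against 810 to 948 at P10. The 3 striatal markers measured summed to 459 to 528 CPM at P49 and 155 to 267 at P10. Sums of 6 inhibitory neuron markers were 859 to 922 CPM at P49 and 460 to 511 at P10. Those of 4 fibroblast markers were lower at P49, at 151 to 163 CPM against 405 to 426. The part of these cell markers in the changes below was not tested.

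Among the genes of the release-linked channels, Cacna1e, the R-type pore, had 226 and 231 CPM at P49, against 158 and 147 CPM at P10. Both P49 libraries lay above both P10 libraries, and the log2 change was 0.58 ± 0.046 (SE; adjusted p = 9.4e-07, edgeR quasi-likelihood test with Benjamini-Hochberg adjustment, as for all adjusted p-values below). Cacna1a had 536 and 520 CPM at P49, against 588 and 564 CPM at P10. Its groups did not overlap, but the fall was small, at -0.12 ± 0.041 (adjusted p = 0.022), and it was not called without P49 replicate 2 (adjusted p = 0.15) or without P10 replicate 1 (adjusted p = 0.14).

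Cacna1b had 276 and 342 CPM at P49, against 444 and 559 CPM at P10. Its log2 change was -0.70 ± 0.10 (adjusted p = 0.00014), and the libraries within each age differed by more than for any other member. That spread came from one end of the gene, and is described with its junctions below.

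The T-type genes fell together. Cacna1g had 203 and 211 CPM at P49, against 343 and 360 CPM at P10, a log2 change of -0.77 ± 0.056 (adjusted p = 4.3e-07) and the largest of the 8 in size. Cacna1h had 116 and 109 CPM at P49, against 138 and 141 CPM at P10, a change of -0.31 ± 0.059 (adjusted p = 0.00088). Cacna1i, which is known for slow T-type kinetics, had 187 and 168 CPM at P49, against 207 and 209 CPM at P10. Its change was -0.23 ± 0.063 (adjusted p = 0.0087), and without P49 replicate 2 it was -0.15 (adjusted p = 0.10).

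The L-type genes were not called. Cacna1c, the main L-type pore of brain and heart, had 122 and 129 CPM at P49 and 127 and 134 CPM at P10, with overlapping groups and a log2 change of -0.06 ± 0.048 (adjusted p = 0.32). Cacna1d, an L-type pore that opens at lower voltage, had 119 and 118 CPM at P49 and 121 and 119 CPM at P10, a change of -0.02 ± 0.045 (adjusted p = 0.67). The self-test on simulated counts for this comparison recovered 75% of genes changed 2-fold, over genes of all read depths and at one set spread. It therefore does not give the power for the L-type genes, whose SEs were 0.048 and 0.045. Small changes in them can still be missed.

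**Figure D2:**
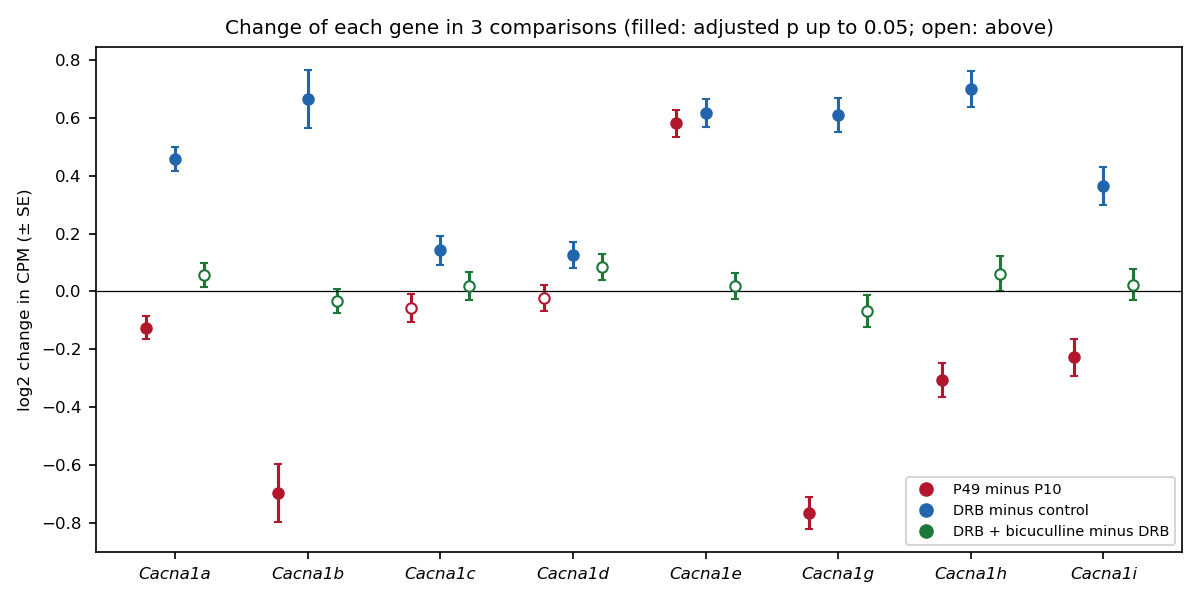
Log2 change in CPM with its SE for the 8 genes in 3 comparisons: P49 minus P10, DRB minus control, and DRB with bicuculline minus DRB alone. Filled points have an adjusted p of up to 0.05. Cacna1e is the only gene above 0 in the first comparison, all 8 lie above 0 in the second, and no point is filled in the third.

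The partners of the channels were counted in fixed lists, which were drawn up with earlier results of these data known. Of the 4 beta subunits, cytoplasmic partners that traffic the pore, all 4 rose at P49, with log2 changes of 1.02 ± 0.11 for Cacnb4 (adjusted p = 1.2e-05), 0.76 ± 0.067 for Cacnb2 (2.2e-06), 0.46 ± 0.046 for Cacnb3 (6.0e-06) and 0.26 ± 0.058 for Cacnb1 (0.0023; all edgeR). Of the 4 alpha-2-delta subunits, extracellular partners, 3 rose and none fell. Cacna2d3 changed by 0.29 ± 0.078 and Cacna2d1 by 0.26 ± 0.057. The largest change was 1.56 ± 0.15 for Cacna2d4, which was little read, at 5.8 and 6.3 CPM at P49 and 2.23 and 1.88 at P10. The direction of the beta subunit genes was thus the opposite of that of most members.

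Of 8 gamma subunits and TARPs, some of which traffic AMPA receptors, 1 rose (Cacng7, 0.19 ± 0.052) and 2 fell (Cacng4, -1.35 ± 0.069, and Cacng5, -0.49 ± 0.12). Of 9 calcium sensors and adaptors, 2 rose and 4 fell. Stac2, an adaptor of L-type channels, rose by 2.19 ± 0.056 and its relative Stac fell by 1.85 ± 0.18 on the log2 scale. Of 11 active zone genes, 7 rose and 3 fell, with Snap25 at 1.57 ± 0.049 and Erc1 at -1.74 ± 0.071 at the ends. Of 4 RGK genes, whose products inhibit these channels, 1 fell (Rrad, -0.76 ± 0.20). The other 2 alpha-1 genes were barely read: Cacna1f, the retinal L-type pore, had 0.731 and 0.739 CPM at P49 and 0.203 and 0.269 CPM at P10. Cacna1s, the skeletal muscle pore, had 2.22 and 2.67 CPM at P49 and 3.61 and 3.44 CPM at P10. Of 13 splicing regulators reported to act on calcium channel exons, 5 rose and 4 fell, with Mbnl2 at 0.81 ± 0.098, Mbnl1 at 0.71 ± 0.076, Nova2 at -0.53 ± 0.061 and Rbfox2 at -0.45 ± 0.047.

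**Figure D3:**
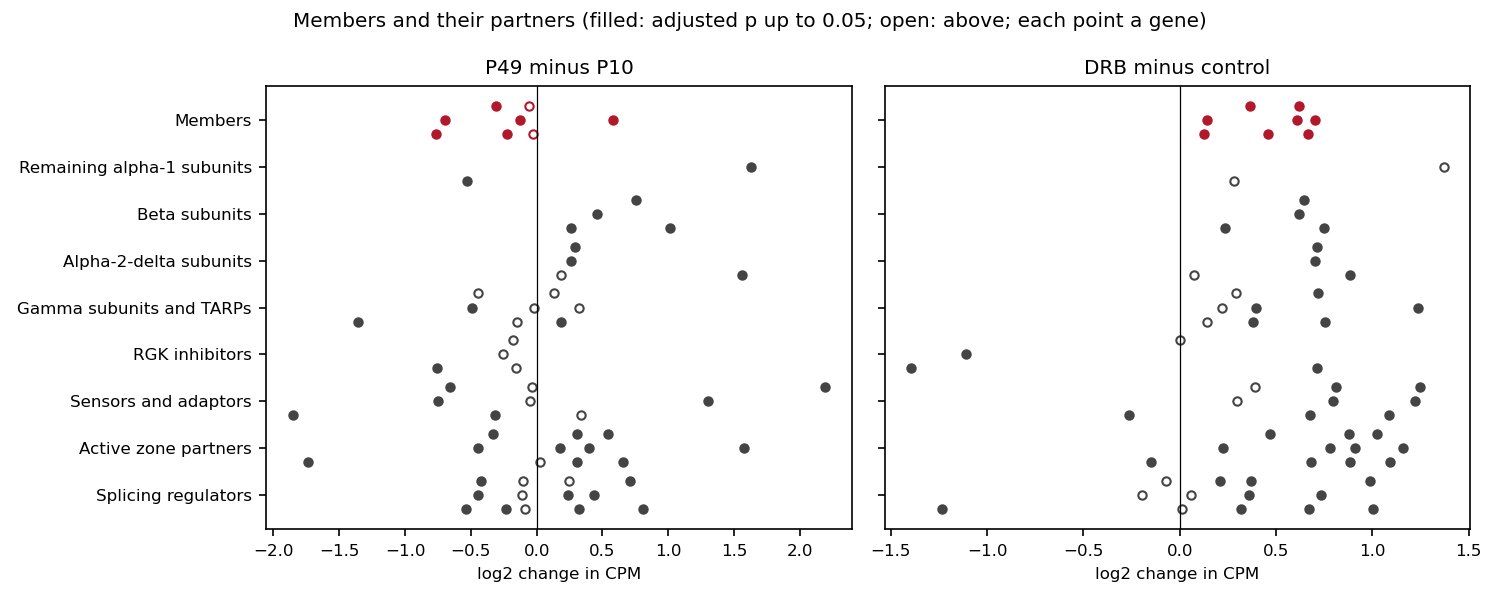
Log2 change of each member and each partner gene, by list, for P49 minus P10 on the left and DRB minus control on the right. Each point is a gene, filled where its adjusted p is up to 0.05. All 4 beta subunit genes lie above 0 in both panels, while the members lie mostly below 0 on the left and above 0 on the right.

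A splicing difference between the ages lay in Cacna1a, at a pair of 97-nt exons that encode alternative versions of an EF-hand-like stretch in the channel's C-terminal tail. GENCODE (release 21) transcripts place the exons on the plus strand of chromosome 8 (GRCm38), with 37a at chr8:84614695-84614791 and 37b at chr8:84615574-84615670 and both joined to the same downstream exon. Their sequences are shown because the choice between them is what was counted, with capitals at the 37 of 97 bases at which the pair differs (61.9% identity).
Cacna1a 37a: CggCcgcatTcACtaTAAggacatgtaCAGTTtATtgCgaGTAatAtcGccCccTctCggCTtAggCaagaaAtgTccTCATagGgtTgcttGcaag
Cacna1a 37b: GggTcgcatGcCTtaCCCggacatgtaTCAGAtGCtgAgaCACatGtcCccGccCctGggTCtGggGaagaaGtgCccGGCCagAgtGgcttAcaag

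The share of 37a among all reads spliced into the shared downstream exon was 49.6% and 43.9% at P49, from 543 and 394 reads (95% Wilson intervals 46.7% to 52.6% and 40.7% to 47.1%, which cover counting error only). At P10 it was 7.69% and 7.96% (intervals 6.39% to 9.24% and 6.62% to 9.56%). Thus 37a was near parity with 37b in the adult and a minor form at P10.

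The log2 odds of 37a were higher by 3.37 ± 0.25 at P49 (SE; adjusted p = 2.0e-06, edgeR on reads for and against each junction). They were called in all 8 alternatives run, with adjusted p up to 0.012. In cultures the share was 0.734% and 0.752% with DRB, against 1.54% and 2.22% in control (adjusted p = 0.18), and 0.535% and 1.53% with DRB and bicuculline, against 2.34% and 0.571% with DRB alone. Every culture library was thus below both P10 libraries.

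The same pair exists in Cacna1b and Cacna1e, and the Cacna1b pair lies at chr2:24626823-24626919 (37a) and chr2:24625238-24625334 (37b), on the minus strand, with 58.8% identity. In Cacna1b, 37a is known from sensory neurons that detect pain. Capitals again mark the bases at which the pair differs.
Cacna1b 37a: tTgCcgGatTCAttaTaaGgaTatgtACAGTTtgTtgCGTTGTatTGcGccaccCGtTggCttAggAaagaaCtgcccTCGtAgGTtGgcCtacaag
Cacna1b 37b: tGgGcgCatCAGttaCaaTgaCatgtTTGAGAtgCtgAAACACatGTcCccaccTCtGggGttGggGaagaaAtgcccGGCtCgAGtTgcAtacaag

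Cacna1b used 37a for 2.22% and 1.54% of reads leaving the upstream exon at P49, and 2.07% and 2.00% at P10. With DRB the shares were 0% and 5.15%, against 1.5% and 4.05% in control, so the DRB libraries spanned all the others. No comparison called it (adjusted p = 0.98 for P49 against P10 and for DRB against control, edgeR). The 95% Wilson interval of the library with no 37a read reached up to 1.43%, so a share of that size was not detectable at this depth.

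In Cacna1e the pair lies on the minus strand at chr1:154417950-154418046 (upstream) and chr1:154416061-154416157 (downstream), with 62.9% identity.
Cacna1e upstream: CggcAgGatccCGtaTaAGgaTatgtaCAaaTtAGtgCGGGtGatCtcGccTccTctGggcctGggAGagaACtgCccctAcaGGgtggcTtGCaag
Cacna1e downstream: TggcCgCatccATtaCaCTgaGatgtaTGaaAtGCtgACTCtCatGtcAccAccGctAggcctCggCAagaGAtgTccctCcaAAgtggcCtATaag

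The upstream exon took 15.5% and 9.67% of reads at P49, against 8.31% and 10.6% at P10, with overlapping groups (log2 odds 0.45 ± 0.38, adjusted p = 0.61, edgeR). In cultures it took 1.74% and 3.45% with DRB, against 8.46% and 4.20% in control (adjusted p = 0.29). The 3 pairs therefore differed in use: at P49, Cacna1a stood at about parity, Cacna1e at 15.5% and 9.67% and Cacna1b at 2.22% and 1.54%. The difference between the genes was not tested.

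Across all members the shared-site measure, each junction against others with the same donor or acceptor, called 5 of 82 member junctions for P49 against P10, against 4.09% of 39061 junctions in all. These were the Cacna1a pair and 3 junctions at a 129-nt exon of Cacna1e. The planned measure, both junctions of a cassette exon against the junction that skips it, could test 13 member events and called 1, that same Cacna1e exon; 3.94% of all events were called. Few events could be tested; the tables held 29.8% and 28.2% of annotated introns that contain a whole exon, against 75.5% and 71.0% of other annotated introns. A further measure, each annotated junction against the well-read junctions nearest to it in its gene, called 25 of 329 member junctions, against 1.86% of all; 9 of the 25 are in Cacna1b, 1 of them the last junction before the step described below (lower at P49) and 8 among the junctions that follow it, as far as chr2:24648563-24648896 (higher at P49). The shared-site and neighbour measures were added after the tables were seen.

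The second Cacna1a exon that changed with age has 36 nt and lies at chr8:84635549-84635584, exon 44 of 47 in its transcript, near the C-terminal end. It is printed in capitals, between the last and first 15 bases of its neighbours.
Cacna1a 36-nt: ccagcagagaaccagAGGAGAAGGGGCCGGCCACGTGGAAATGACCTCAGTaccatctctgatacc

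Reads on its downstream junction were 84.5% and 79.9% of the mean of neighbouring junctions at P49, against 40.9% and 36.8% at P10. Its upstream junction gave 77.0% and 74.3% at P49, against 35.1% and 31.6% at P10. The log2 changes were 1.08 ± 0.082 (adjusted p = 3.9e-10) and 1.18 ± 0.088 (adjusted p = 2.6e-10, both edgeR), and both were called in all 8 alternatives. The exon was thus read at nearly the level of its neighbours in the adult and at well under that level at P10.

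Cacna1d used a 60-nt exon at chr14:30129789-30129848 (minus strand, exon 11 of 49) far more at P49. Its junctions averaged under 20 reads, the minimum for testing, so its test belongs to the alternative with a minimum of 5 reads, and it was chosen for the text after its values were seen.
Cacna1d 60-nt: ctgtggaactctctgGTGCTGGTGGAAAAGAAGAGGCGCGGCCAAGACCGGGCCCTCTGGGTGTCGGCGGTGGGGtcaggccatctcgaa

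Its upstream junction carried 42.0% and 46.1% of the mean of its neighbours at P49 (62 and 67 reads), against 6.60% and 3.40% at P10 (11 and 6 reads). With DRB it carried 1.58% and 1.47%, against 0.771% and 2.36% in control. The log2 change for P49 against P10 was 3.13 ± 0.33 (adjusted p = 2.9e-07, edgeR at that lower minimum). Cacna1d as a gene was level between the ages, so the exon differed where the summed reads did not.

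A junction of a second Cacna1d exon went the other way. The exon has 84 nt and lies at chr14:30089296-30089379. Its downstream junction carried 25.0% and 19.3% of the mean of its neighbours at P49, against 42.4% and 46.9% at P10 (log2 change -1.0 ± 0.23, adjusted p = 0.014, edgeR). No other junction of this exon was called, and a single junction does not give the inclusion of the exon. The call was lost without P10 replicate 2 (adjusted p = 0.12), without P49 replicate 2 (0.22) and with limma (0.25).
Cacna1d 84-nt: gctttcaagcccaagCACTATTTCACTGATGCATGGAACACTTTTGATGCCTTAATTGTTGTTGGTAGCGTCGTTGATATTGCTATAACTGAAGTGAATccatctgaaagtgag

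The 129-nt exon of Cacna1e, at chr1:154404885-154405013, was the member event called by the planned measure. Its inclusion was 5.84% and 6.38% at P49, against 13.7% and 16.7% at P10, with no overlap.
Cacna1e 129-nt: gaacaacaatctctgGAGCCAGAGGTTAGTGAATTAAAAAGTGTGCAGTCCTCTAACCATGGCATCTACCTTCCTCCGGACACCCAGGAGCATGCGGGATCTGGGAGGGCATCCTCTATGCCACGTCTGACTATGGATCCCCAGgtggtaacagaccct

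The log2 odds of inclusion fell by 1.46 ± 0.27 (adjusted p = 0.0017, edgeR), a call lost with limma. The fall of 9.1 percentage points is below the 10 points set for naming, so the exon is given because it was the 1 event called. In cultures its inclusion averaged 12.2% with DRB, against 19.6% in control, which was not called (adjusted p = 0.12). Cacna1e also had a junction, chr1:154426003-154426525, at 87.7% and 76.0% of its neighbours at P49, against 43.3% and 44% at P10 (log2 change 0.91 ± 0.13, adjusted p = 6.8e-05, edgeR), a call lost with limma (adjusted p = 0.086). Outside the 129-nt exon, 3 more Cacna1e junctions were called. The one at chr1:154398936-154401982 carried 90.2% and 100% of its neighbours at P49, against 65% and 55.3% at P10 (0.65 ± 0.12, adjusted p = 0.0014, edgeR), and was lost with limma (adjusted p = 0.22). The one at chr1:154469109-154471337 was also higher, at 159% and 176% at P49, against 124% and 130% at P10 (0.40 ± 0.11, adjusted p = 0.05). The one at chr1:154402174-154403677 was lower, at 147% and 137% at P49, against 180% and 193% at P10 (-0.39 ± 0.10, adjusted p = 0.04). The last 2 calls were lost with limma (adjusted p = 0.24 and 0.44), with only the 2 ages in the fit (0.11 and 0.075) and without any 1 of the 4 libraries (0.075 to 0.45).

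Cacna1g, the gene that fell most, also changed around a 54-nt exon at chr11:94423671-94423724 (minus strand, exon 26 of 38), in the region that encodes the linker between the last repeats of the channel.
Cacna1g 54-nt: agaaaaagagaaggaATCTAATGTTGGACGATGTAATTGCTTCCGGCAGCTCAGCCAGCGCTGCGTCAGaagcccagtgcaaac

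Its downstream junction carried 43.0% and 46.8% of the mean of its neighbours at P49, against 68.4% and 59.4% at P10 (log2 change -0.50 ± 0.11, adjusted p = 0.0092, edgeR). Its upstream junction carried 15% and 14.8% at P49, against 28.6% and 24.3% at P10 (-0.82 ± 0.19, adjusted p = 0.012). The downstream level was thus above the upstream one at both ages, so neither junction alone gives the inclusion of the exon. Both calls were lost without P49 replicate 1 (adjusted p = 0.18 and 0.092) and without P10 replicate 1 (0.13 and 0.096), and the upstream one also without P49 replicate 2 (0.10). With limma both were lost (adjusted p = 0.49 and 0.72). The plot of exon use sets these exons side by side.

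**Figure D4:**
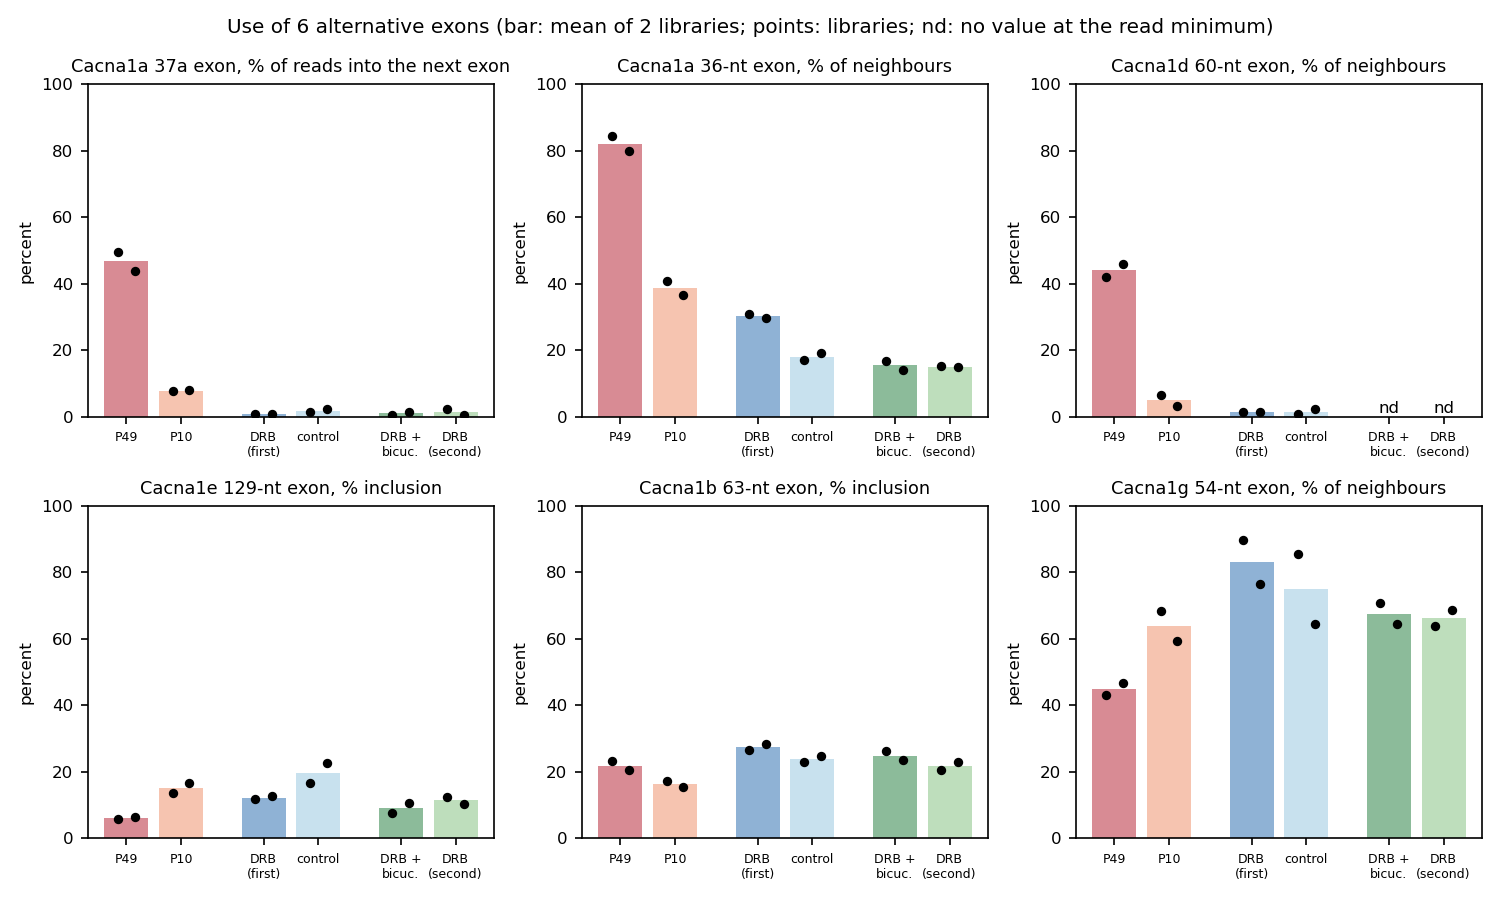
Use of 6 alternative exons by group, in percent; bars are means of 2 libraries and points are libraries. The measure is the share of reads on the shared downstream exon for Cacna1a 37a, inclusion against skipping for Cacna1e and Cacna1b, and reads relative to neighbouring junctions for the others; nd marks groups with no value at the read minimum. Cacna1a 37a reaches 49.6% and 43.9% at P49 and stays at or below 2.34% in every culture library. For Cacna1g the downstream junction is plotted, which stood above the upstream one at both ages and does not give the inclusion of the exon.

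The 63-nt exon of Cacna1b at chr2:24682976-24683038, in the loop that binds release proteins, had an inclusion between 15.4% and 28.5% in every library. Its inclusion was 23.2% and 20.6% at P49, against 17.3% and 15.4% at P10 (adjusted p = 0.22, edgeR), 26.5% and 28.5% with DRB, against 23.0% and 24.8% in control (adjusted p = 0.57), and 26.2% and 23.5% with DRB and bicuculline, against 20.5% and 23.1% with DRB alone (adjusted p = 0.99). The P49 and P10 libraries did not overlap, but the difference did not pass the test.
Cacna1b 63-nt: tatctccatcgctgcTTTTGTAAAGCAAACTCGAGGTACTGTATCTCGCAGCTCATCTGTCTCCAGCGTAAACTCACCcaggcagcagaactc

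Reads along Cacna1b showed a step that no gene sum can show. Of its 47 junctions with a mean of at least 20 reads, 23 lie before the step, the last at chr2:24678040-24678875, and 24 after it, the first at chr2:24658995-24661753. After the step the libraries of an age were alike, at 7.55 and 7.56 CPM per junction at P49, against 8.79 and 8.51 at P10. Before it they were not: 4.11 and 6.98 CPM per junction at P49, against 10.1 and 15.4 at P10.

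The ratio of the 2 parts was 0.545 and 0.923 at P49, against 1.15 and 1.81 at P10. In cultures it was 1.89 and 1.85 with DRB, against 2.00 and 1.99 in control, with close agreement within each group. Counted before the step only, Cacna1b had a log2 change of -1.20 between P49 and P10, and counted after it only, -0.19. The boundary was placed after the values were seen, so these are descriptions. Among 1699 genes with at least 20 such junctions, the difference between the 2 libraries in the ratio of reads early to late in the gene ranked 6 at P49 and 8 at P10 for Cacna1b; the other members ranked from 226 to 1683 in those tissues. In library order, the 3 striatal markers measured summed to 528 and 459 CPM at P49, against 267 and 155 CPM at P10. Their part in the step was not tested.

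**Figure D5:**
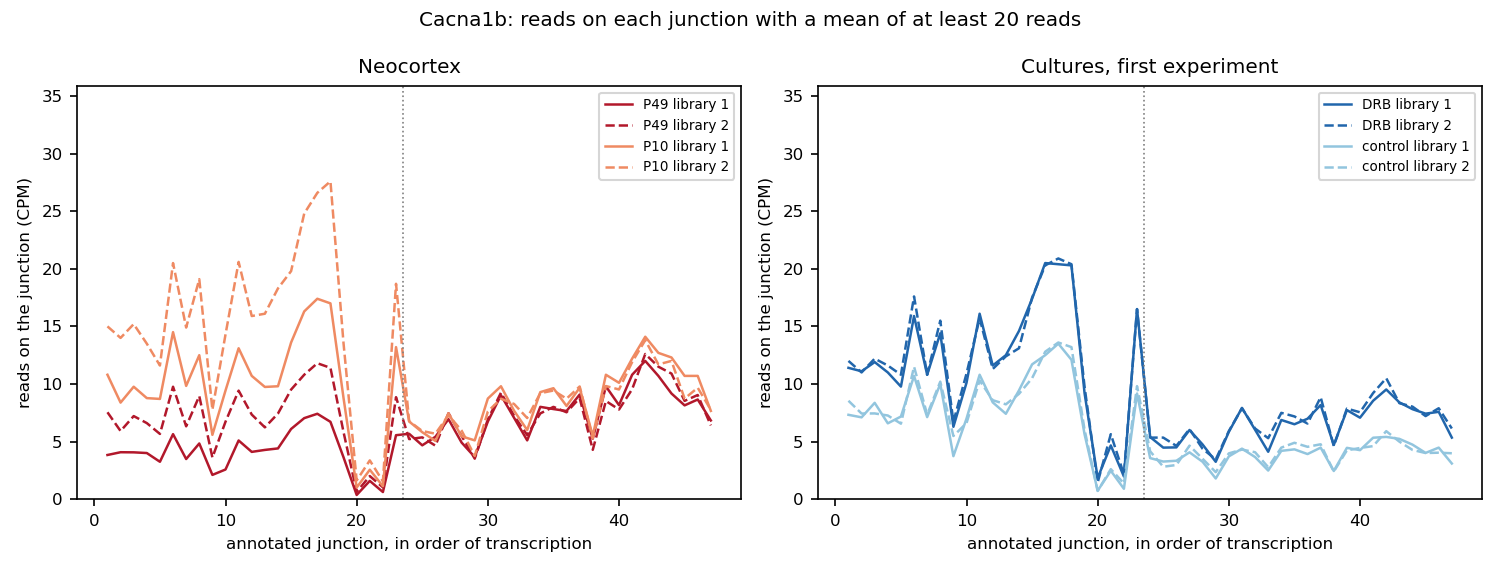
Reads on each Cacna1b junction in CPM, in order of transcription, for neocortex on the left and the first culture experiment on the right; each line is a library and the dotted line marks the step. Before the step the neocortex libraries separate into 4 levels, from 4.11 CPM per junction in P49 library 1 to 15.4 in P10 library 2. After it they lie together, at 7.55 to 8.79.

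DRB against control asks which transcripts hold their share of the RNA after 2 hours of DRB. A higher CPM there is a higher share of the remaining RNA and not a higher amount. All 8 genes were higher with DRB. Of all genes, 30.0% were higher and 33.3% lower, 63.3% in all, and the median log2 change was 0.54 over the members and -0.03 over all genes. The sum of 6 neuronal markers was higher with DRB in the same libraries, and the sum of 3 progenitor markers was lower (values above). Their part in the result was not tested.

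Cacna1h, a T-type pore, had 90.6 and 94.8 CPM with DRB, against 53.7 and 60.3 CPM in control, the largest change at 0.70 ± 0.061 (adjusted p = 1.4e-06, edgeR). Cacna1b had 435 and 448 CPM with DRB, against 274 and 282 CPM in control (0.67 ± 0.10, adjusted p = 0.00016), and was higher both before and after its step (0.63 and 0.73). Cacna1e had 166 and 170 CPM with DRB, against 108 and 111 CPM in control (0.62 ± 0.047, adjusted p = 5.4e-07). In these 3 genes all DRB libraries exceeded all control libraries.

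Cacna1g had 109 and 113 CPM with DRB, against 68.5 and 76.8 CPM in control (0.61 ± 0.058, adjusted p = 2.8e-06, edgeR). Cacna1a had 352 and 356 CPM with DRB, against 257 and 258 CPM in control (0.46 ± 0.041, adjusted p = 1.9e-06). Cacna1i had 85.5 and 83.3 CPM with DRB, against 61.6 and 69.3 CPM in control (0.36 ± 0.065, adjusted p = 0.00042). None of these groups overlapped.

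The L-type genes changed least. Cacna1c had 119 and 121 CPM with DRB, against 107 and 111 CPM in control (0.14 ± 0.049, adjusted p = 0.023, edgeR). Cacna1d had 101 and 101 CPM with DRB, against 94.9 and 89.5 CPM in control (0.13 ± 0.045, adjusted p = 0.028). Each was lost in 3 of 4 fits without 1 library: Cacna1c without DRB replicate 1 (adjusted p = 0.062), DRB replicate 2 (0.099) or control replicate 1 (0.14), and Cacna1d without DRB replicate 1 (0.078), DRB replicate 2 (0.090) or control replicate 2 (0.17).

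The partner lists moved mostly the same way. All 4 beta subunits were higher, from 0.24 ± 0.070 for Cacnb2 to 0.75 ± 0.047 for Cacnb3, and so were 3 of 4 alpha-2-delta subunits, 5 of 8 gamma subunits and TARPs, and 10 of 11 active zone genes, with Snap25 at 1.09 ± 0.049 and Syt1 at 1.03 ± 0.045. Of 9 sensors and adaptors 6 were higher and 1 lower. The RGK inhibitors differed among themselves: Gem and Rrad were lower (-1.39 ± 0.16 and -1.11 ± 0.28) and Rem2 was higher (0.71 ± 0.16). Of 13 splicing regulators, 8 were higher and 1 lower, the last being Ptbp1, a repressor of neuronal exons, at -1.23 ± 0.053, with Rbfox3 at 1.00 ± 0.053 and Rbfox1 at 0.99 ± 0.056.

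Few member junctions passed the test with DRB. The planned measure called 0 of 13 member events (1 at an unadjusted p under 0.05; 6.45% of all events were called), the shared-site measure 2 of 82 (6.89% of all) and the neighbour measure 5 of 329 (2.03% of all), so none of these shares exceeds the background. The 36-nt exon of Cacna1a was the one whose calls covered both its junctions. Its downstream junction stood at 31.0% and 29.7% of its neighbours with DRB, against 17.0% and 19.2% in control (0.73 ± 0.14, adjusted p = 0.0027), and its upstream junction at 28.0% and 22.8%, against 17.5% and 15.3% (0.63 ± 0.16, adjusted p = 0.030). The groups did not overlap, but the downstream call was lost without control replicate 1 (adjusted p = 0.075) and the upstream one without any 1 of 3 libraries (0.095 to 0.39). With limma neither was called (adjusted p = 0.094 downstream and 0.2 upstream). In the second experiment the downstream junction averaged 15.1% with DRB alone and 15.4% with DRB and bicuculline. The upstream junction averaged 12.6% and 11.2% there. The means with DRB alone were thus below those of the first control, 18.1% and 16.4%, and no test was made between the experiments.

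The 2 shared-site calls are the 2 sides of one choice in Cacna1a. Reads entering the exon after chr8:84601388 came from an unannotated donor (chr8:84600662-84601388) in 10.5% and 15.1% of cases with DRB, against 26.1% and 23.2% in control (log2 odds -1.14 ± 0.29, adjusted p = 0.024, edgeR). At P49 that share was 15.5% and 13.6%, against 12.1% and 10.0% at P10. The call was lost without DRB replicate 1 (adjusted p = 0.22), without either control library (0.17 and 0.089) and with limma (0.11). Cacna1d had 1 further junction (chr14:30111196-30114168) higher with DRB and Cacna1i had 2 lower, at chr15:80287778-80298393 and chr15:80370464-80370755, with adjusted p from 0.029 to 0.041 by edgeR. All 3 were lost with limma (adjusted p from 0.1 to 0.2). The Cacna1d junction and the second of Cacna1i were lost without any 1 of the 4 libraries (0.075 to 0.4 and 0.11 to 0.36), and the first of Cacna1i without 3 of the 4 (0.098 to 0.42).

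Bicuculline in the presence of DRB asks whether network activity changes transcripts while DRB limits new transcription. None of the 8 genes was called, with adjusted p = 1.00 for each by edgeR; 0 had an unadjusted p under 0.05, DESeq2 called 0, and 0.212% of 14138 genes were called in all. Log2 changes ran from -0.07 ± 0.056 for Cacna1g to 0.09 ± 0.045 for Cacna1d. Cacna1d had 88.8 and 92.6 CPM with DRB and bicuculline, against 87.3 and 83.6 CPM with DRB alone. Cacna1a had 250 and 247 CPM with both drugs, against 248 and 231 CPM with DRB alone, and Cacna1g 62.0 and 61.5, against 69.3 and 60.1. No shared-site junction of 60, no neighbour junction of 319 and no planned event of 9 was called among members (2, 21 and 0 at an unadjusted p under 0.05), as were 0.00490%, 0.00278% and 0% of all.

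In the second experiment Cacna1b (5.49 and 5.17 CPM per junction) and Cacna1a (5.38 and 5.01) led with DRB alone, with overlapping ranges. Cacna1h had the lowest mean, at 1.38 and 1.19, and overlapped Cacna1i, at 1.36 and 1.33. Cacna1e ranked 3 with 3.97 and 3.65 CPM per junction with DRB and bicuculline, against 3.91 and 3.61 with DRB alone. The 2 experiments were scaled separately, so no test was made between them.

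The genes most like each member over the 8 libraries of the first table were sought among 9253 genes at or above a mean of 3 on the log2 CPM scale. They were Rgs11 and Mcf2l for Cacna1a (Pearson r of 0.999 and 0.998), Bex1 and Sobp for Cacna1b (0.984 and 0.970), Lmo3 and Rhof for Cacna1c (0.979 and 0.975), and Tada2a and Gatm for Cacna1d (0.999 and 0.994). They were Egr1 and Pgk1 for Cacna1e (0.997 and 0.996), Col15a1 and Srpk1 for Cacna1g (0.997 and 0.996), Kat2a and Abcg4 for Cacna1h (0.997 and 0.996), and Wscd2 and Ephb1 for Cacna1i (0.998 and 0.998). Among the members themselves, Cacna1a and Cacna1d were most alike (0.99), and Cacna1b and Cacna1e least (0.13). The 8 libraries are 4 groups of 2, so these values describe the groups and carry no test.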

How the data were processed

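Strand-specific libraries (TruSeq stranded mRNA) of polyadenylated RNA were aligned to the GRCm38 (mm10) genome; the aligner was STAR 2.4.0f1, per the submitters' processing notes, and the counter and its filters are not given in the sources used here. Per the file headers, the deposited values used are raw counts of reads across exon-exon junctions. Rows have 3 fewer cells than the headers (64 against 67, and 36 against 39), so columns were read after that shift. Column names gave groups only: the columns of P49, control and DRB alone in the second experiment were found by elimination, and library numbers follow column order. A further 72 per-library columns of other intron measures were not used. Reads without a gene made up 0.079% to 0.097% of spliced reads and were left out.

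Junctions were matched to GENCODE mouse release 21 introns, which held 99.13% to 99.29% of spliced reads in the first table, and summed by gene. Each table was filtered (filterByExpr), scaled (TMM) and fitted over all genes by the quasi-likelihood method of edgeR 4.0.16 (R 4.3.3), with Benjamini-Hochberg adjustment and a threshold of 0.05. Exon use was fitted as reads for and against, at a mean of at least 20 reads. The shared-site and neighbour measures (up to 3 junctions a side) were added after the data were seen. Alternatives were DESeq2 1.42.0, limma 3.58.1, other filters and read minimums, all junctions, only the compared groups, a block, and each library left out. On simulated data the gene test recovered 73.0% to 79.0% of 200 genes changed 2-fold. The other tests were given larger changes, set in the odds, and a smaller set spread, so their recovery does not give the power for 2-fold changes. On these the exon event test recovered 53.5% to 62.5% and the neighbour test 97.5% to 100%. The shared-site test recovered 21% to 27%, and its simulated junctions included some with fewer reads than the minimum tested. Shared-site changes can therefore go uncalled. Reads carry no molecular identifiers, so intervals cover counting error only.

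The members, lists and measures were chosen with earlier results of these data known. Text names all members, called exon events that differ by at least 10 percentage points, every exon pair, at most 4 called genes a list, and the 2 genes most correlated with each member; exceptions are marked.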

Additional observations from a re-analysis of the deposited data

How the results depend on the processing

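No result changed sign with a call under any alternative run. For P49 against P10, 6 members were called with each of DESeq2, no filter, all junctions and only the 2 groups, and 4 to 6 without 1 library; for DRB against control, 8 were called under the same settings, and 6 to 7 without 1 library. Exon calls were less stable. With limma, P49 against P10 gave 0 member exon events in place of 1, 2 shared-site junctions in place of 5 and 4 neighbour junctions in place of 25, and DRB against control gave 0 and 0 in place of 2 and 5. Only the 2 groups in the fit gave 3 shared-site junctions for P49 against P10. Without 1 library, P49 against P10 gave 1 to 1 events, 2 to 4 shared-site and 13 to 21 neighbour junctions, and DRB against control 0 to 1 and 0 to 2. The cause was not tested.

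For bicuculline the replicate block on the column letter called 0 members, as without it, and 96 genes in all against 30. DESeq2 called 25, no filter 67, and fits without 1 library 36 to 82. No paired analysis was possible in the first table because its columns carry no replicate number of the labels. With 2 libraries a group, small changes can be missed, and exons with few reads are limited by depth.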
